A study of Mus musculus with 60 samples.

Results

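Dexamethasone, a synthetic glucocorticoid, is a usual part of hepatocyte medium, and 6 of the 60 RNA-Seq libraries of this study come from mouse hepatocytes cultured without it. These 6 libraries, 1 per animal, were harvested after 2 h of culture. They were compared with the 20 libraries harvested after 1 h and 3 h from 10 other animals whose cultures had dexamethasone, so that 26 of the 60 libraries entered the comparison. All animals were 8 week-old male C57BL/6J offspring. Fathers had drunk nicotine (NIC) or, as controls, tartaric acid (TA). The cultures without dexamethasone came from 3 NIC and 3 TA offspring, and those with it from 5 NIC and 5 TA offspring. DMSO, a solvent, was present in all of them. Each animal with dexamethasone is represented by the mean of its 1 h and 3 h libraries, which gives 6 animals without and 10 with dexamethasone.

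The comparison has limits that its design sets. Library titles carry a date, and the 6 libraries without dexamethasone all carry one date (called D here), whereas the 20 with dexamethasone carry 2 others (A for 6 animals, B for 4). Culture time differs as well (2 h against 1 h and 3 h), and so do the animals. Dexamethasone, title date and animals therefore cannot be told apart. The labels describe 1 growth protocol for all samples, in which the dissociation medium held dexamethasone and the cells adhered for 3 h before fresh medium was added. Whether the cells cultured without dexamethasone had met it before that point is not given. The concentration was 0.1 mM by the labels and 0.1 µM by the study's methods. Values are TPM (abundances scaled by transcript length and to a common library total), for which the depth of each library is unknown. The number of genes above 0 was 11818 to 14008 in the libraries without and 11699 to 12674 in those with dexamethasone.

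Glucocorticoids cross the cell membrane and bind the glucocorticoid receptor, which chaperones hold in the cytoplasm. The bound receptor enters the nucleus, where it activates genes through DNA elements and restrains inflammatory genes, in part by acting on NF-kB and AP-1. In the liver it is best known for inducing enzymes of gluconeogenesis and amino acid breakdown, the response by which a fasting animal turns protein into glucose.

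One library without dexamethasone stood apart from the rest. On the first principal component of all genes (55.6% of the variance), NIC replicate 3 without dexamethasone had a score of -27.2, among the animals with dexamethasone (-51.2 to -2.86), whereas the other 5 animals without dexamethasone lay between 48.6 and 79.6. It was not at the dexamethasone level for every gene. Of the 3422 genes called higher without dexamethasone, 405 (11.8%) were higher in this animal than in any animal with dexamethasone, against 78.1% to 92.8% in each of the other 5. Of the 942 genes called lower, 401 (42.6%) were lower in it than in any animal with dexamethasone, against 51.1% to 77.7% in the others. Results are therefore given with this animal and, where its absence matters, without it.

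**Figure D1:**
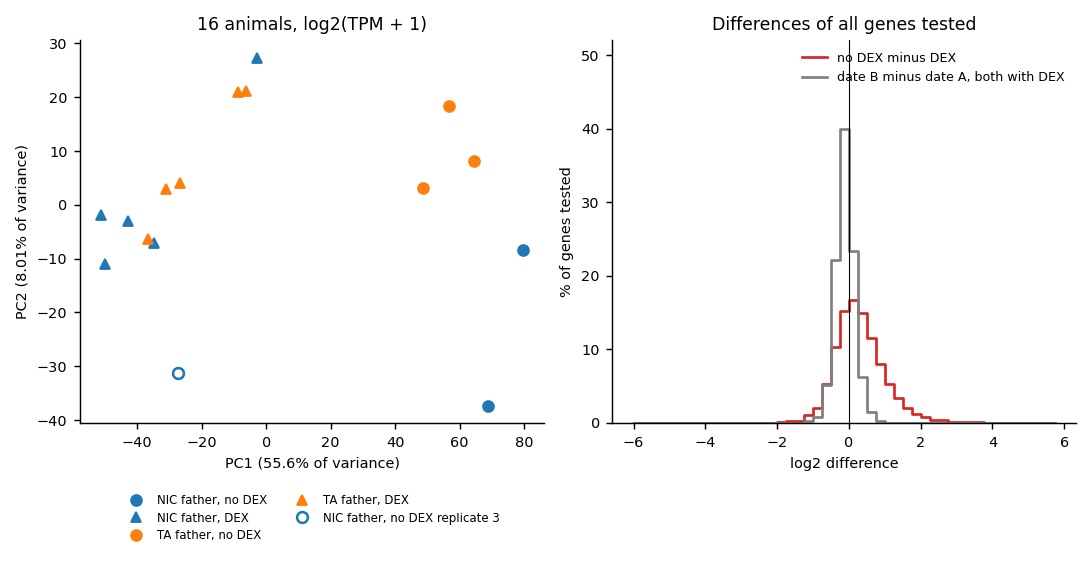
Left, the first and second principal components of 16 animals on log2(TPM + 1), with circles for animals without and triangles for animals with dexamethasone; the open circle is NIC replicate 3 without dexamethasone, at -27.2 on PC1. Right, the distribution over 10585 genes of the log2 difference without minus with dexamethasone, which is wider (SD 0.71, median 0.23) than that between title dates B and A with dexamethasone (SD 0.27, median -0.11).

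A large share of the transcriptome differed between the cultures. Of 10585 genes with a mean above 1 TPM, 3422 (32.3%) were higher and 942 (8.9%) lower without dexamethasone at a Benjamini-Hochberg adjusted p under 0.05, by limma on log2(TPM + 1) with a term for the father. With Holm adjustment, 283 were higher and 28 lower. In 269 genes (2.54%) every animal without dexamethasone lay above every animal with it, and in 91 (0.86%) every one lay below. Values with dexamethasone are means of a 1 h and a 3 h library, whereas those without it are single libraries, which narrows the range with dexamethasone. Overlap is judged here and below on these animal values. In Tat, Baat, Sesn1, Fam107a, Ei24 and Cep85l, described below as not overlapping, the lowest single library with dexamethasone fell below the highest without it. A number alone in parentheses after a gene is, from here on, its log2 difference. The shares of all genes called, 32.3% higher and 8.9% lower, are the background for the list counts below. The median gene was higher by 0.23 on the log2 scale, so that the excess of higher calls depends on scaling. With median ratio scaling, which brings that median to -0.0032, the split was 2451 higher and 2144 lower. TMM scaling gave 2326 higher and 2338 lower, and quantile normalization 2150 higher and 2536 lower. Under TPM as deposited and all of these, 2002 genes (18.9%) were called higher and 938 (8.86%) lower. Title dates B and A, both with dexamethasone, differed in 1 of the same 10585 genes (0.00945%), the heat shock gene Hsph1. That comparison had fewer animals and left out date D, so it does not measure how much date D differs. A difference of more than 1 on the log2 scale was found for 1682 genes without against with dexamethasone and for 41 genes between dates B and A.

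The receptor's own transcript was not called lower without its ligand. Transcripts of Nr3c1, which encodes the glucocorticoid receptor, were at 56.2, 51.6 and 29.2 TPM in the NIC animals and 55.2, 49.2 and 38.9 TPM in the TA animals without dexamethasone, and at 23.8 to 42.1 TPM with it (median 33.4). The groups overlapped, and the difference was small (log2 difference 0.52, standard error 0.16, adjusted p = 0.0142) and was not called under every scaling. Nr3c2, the mineralocorticoid receptor, which also binds glucocorticoids, was at 5.31 to 13.96 TPM without dexamethasone (median 10.4), against 2.73 to 5.56 TPM with it (median 4.59). It was called higher under every scaling (log2 difference 0.94, standard error 0.20, adjusted p = 0.00141). Of 11 tested genes for the receptor, its chaperones and cofactors, 3 were higher and none lower, with a median log2 difference of 0.19, close to that of all genes. The third was Nrip1, a receptor corepressor (0.55), whose call was also lost with other scalings. The chaperones Hsp90aa1 (0.19), Hsp90ab1 (0.16) and Fkbp4 (-0.36) and the cortisone-reactivating enzyme Hsd11b1 (-0.0019) did not pass the test.

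Many genes that the glucocorticoid receptor is known to induce in feedback and signalling were lower, among them Zbtb16, Per1, Fkbp5 and Tsc22d3. Of 28 tested, 12 were lower (42.9%, against 8.9% of all genes), 3 were higher (10.7%, against 32.3%) and the median log2 difference was -0.58, against 0.23 over all genes. All 12 were lower under every scaling, and 12 were lower without NIC replicate 3. In 7 of the 12, NIC replicate 3 without dexamethasone also lay below every animal with dexamethasone. Over all genes called lower, this held for 401 of 942 (42.6%). Zbtb16, which encodes the transcription repressor PLZF, was at 5.51, 4.18 and 7.51 TPM in the NIC animals and 6.33, 3.05 and 4.85 TPM in the TA animals without dexamethasone. With dexamethasone it was at 12.03 to 31.1 TPM (median 22.1). The groups did not overlap (log2 difference -1.86, standard error 0.18, adjusted p = 2.56e-06). Per1, a clock gene that glucocorticoids induce directly, was at 1.39, 2.13 and 1.28 TPM in the NIC animals and 2.61, 2.93 and 2.19 TPM in the TA animals without dexamethasone. Animals with dexamethasone had 3.17 to 9.42 TPM (median 5.40), above all 6 of these values (log2 difference -1.08, standard error 0.21, adjusted p = 0.00075).

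Fkbp5, an inhibitor of the receptor that is induced in feedback, was at 8.94, 11.4 and 21.01 TPM in the NIC animals and 10.9, 7.08 and 7.05 TPM in the TA animals without dexamethasone. With dexamethasone it was at 15.3 to 50.7 TPM (median 25.9), and only NIC replicate 3 reached that range (log2 difference -1.39, standard error 0.21, adjusted p = 0.000131). Tsc22d3, known as GILZ, a mediator of the anti-inflammatory action of glucocorticoids, was at 62.3, 21.6 and 74.3 TPM in the NIC animals and 30.3, 26.99 and 35.5 TPM in the TA animals without dexamethasone, against 48.8 to 119.7 TPM with it (median 72.01). NIC replicates 1 and 3 lay within the dexamethasone range, and the other 4 animals below it (log2 difference -0.85, standard error 0.24, adjusted p = 0.0088). Klf9, a transcription factor induced by glucocorticoids in many cell types, was lower by a smaller step, at 36.7 to 53.2 TPM without dexamethasone (median 46.1) and 52.2 to 106 TPM with it (median 62.3) (log2 difference -0.55, standard error 0.13, adjusted p = 0.00376). In Fam107a, a glucocorticoid-induced actin-binding protein, and Sesn1, a stress-induced inhibitor of mTORC1, the groups did not overlap (log2 differences -1.39 ± 0.26 and -0.98 ± 0.20, the second value being the standard error). The other called members were Gadd45g (-1.41), Mfsd2a (-1.11), Foxo3 (-1.05), Tiparp (-0.96) and Gadd45b (-0.82).

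Not all induced genes were lower. Dusp1, a phosphatase that turns off stress kinases, was at 236, 303 and 66.7 TPM in the NIC animals and 190.2, 217 and 222 TPM in the TA animals without dexamethasone, against 80.3 to 169 TPM with it (median 120.1). It was higher in 5 of the 6 animals than in any with dexamethasone, while NIC replicate 3 lay below them all (log2 difference 0.63, standard error 0.24, adjusted p = 0.0467), and its call was lost with median ratio scaling. Sgk1, a kinase induced by steroids, ranged from 8.95 to 86.6 TPM without dexamethasone and from 23.2 to 38.6 TPM with it, and did not pass the test (log2 difference -0.01, standard error 0.32, adjusted p = 0.988). The metallothionein Mt2 was called higher (0.62, adjusted p = 0.0434) with TPM as deposited but not with median ratio scaling. Leaving out any one of 12 animals ended the call of Dusp1 and that of Mt2, and for Nrip1 this held for 13 animals. Tgm2, a transglutaminase, was higher by the largest step in this list, at 1041, 1756 and 239 TPM in the NIC animals and 1747, 1872 and 1362 TPM in the TA animals without dexamethasone, against 74.8 to 832 TPM with it (median 112) (log2 difference 2.86, standard error 0.49, adjusted p = 0.00034).

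**Figure D2:**
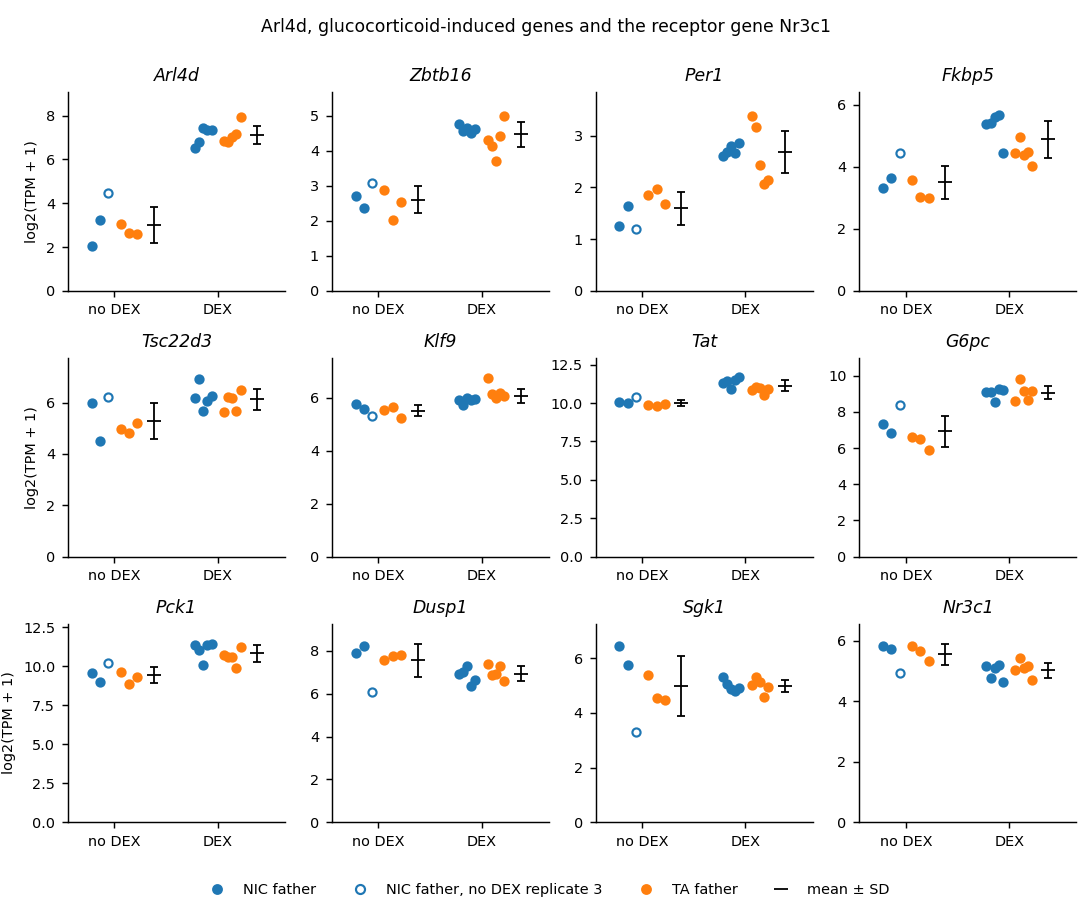
log2(TPM + 1) of 12 genes in each animal, without dexamethasone at the left and with dexamethasone at the right of each panel, with the mean and SD of each group beside the points; open circles mark NIC replicate 3 without dexamethasone. Arl4d, Zbtb16, Per1, Tat and G6pc do not overlap between the groups, whereas Dusp1, Sgk1 and Nr3c1 do.

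Genes of liver metabolism that were listed as glucocorticoid-induced were split. Of 34 tested, 13 were lower (38.2%) and 6 higher (17.6%), with a median log2 difference of -0.22, and all 13 were lower under every scaling. Tat, tyrosine aminotransferase, the classic glucocorticoid-induced enzyme of hepatocytes, was at 1096, 1016 and 1344 TPM in the NIC animals and 941, 897 and 994 TPM in the TA animals without dexamethasone. With dexamethasone it was at 1450 to 3265 TPM (median 2089), so that the groups did not overlap by animal and Tat was 2.15-fold lower without dexamethasone (log2 difference -1.10, standard error 0.11, adjusted p = 4.36e-06). Single 3 h libraries with dexamethasone reached down to 1253 TPM, below the 1344 TPM of NIC replicate 3. G6pc, glucose-6-phosphatase, which releases glucose from the hepatocyte, was at 158, 112 and 335 TPM in the NIC animals and 96.9, 91.02 and 59.4 TPM in the TA animals without dexamethasone, against 378 to 889 TPM with it (median 568). It did not overlap between the groups either, although NIC replicate 3 came close to the lowest animal with dexamethasone (log2 difference -2.14, standard error 0.26, adjusted p = 1.79e-05). Pck1, the enzyme that commits carbon to gluconeogenesis, was at 756, 513 and 1208 TPM in the NIC animals and 787, 474 and 630.3 TPM in the TA animals without dexamethasone, against 946 to 2804 TPM with it (median 1879) (log2 difference -1.39, standard error 0.23, adjusted p = 0.000231). Of the 6 animals without dexamethasone, NIC replicate 3 alone lay within the range of those with it.

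Lpin1, a phosphatidate phosphatase and coactivator of fasting genes, was at 16.4 to 102 TPM without dexamethasone (median 35.9) and 64.8 to 344 TPM with it (median 122) (log2 difference -1.76, standard error 0.32, adjusted p = 0.000559). Irs2, the insulin receptor substrate that rises in fasting, was at 1.78 to 22.4 TPM without dexamethasone (median 5.75) and 12.6 to 40.2 TPM with it (median 29.4) (log2 difference -1.98, standard error 0.36, adjusted p = 0.000458). In both genes NIC replicate 3 was the highest of the animals without dexamethasone, and leaving it out gave log2 differences of -1.99 for Lpin1 and -2.34 for Irs2. Enzymes of amino acid breakdown and the urea cycle in this list fell by less, namely Sds (-0.66), Hpd (-0.56), Agxt (-0.54), Got1 (-0.53), Arg1 (-0.40), Gpt2 (-0.39) and Cps1 (-0.39). Of 19 tested hepatocyte markers, Tat and Cps1 among them, 8 were lower (42.1%), with a median log2 difference of -0.31. The part of hepatocyte content in the falls of these enzymes was not tested. Nr1i2, the xenobiotic receptor PXR, fell by 0.48 on the log2 scale. Its target Cyp3a11 (-0.04) did not pass the test, whereas of 34 tested PXR and CAR targets 6 were lower (17.6%) and 4 higher (11.8%). The 6 higher members of the glucocorticoid-induced list were Pdk4 (1.91), which spares glucose by inhibiting pyruvate dehydrogenase, Sult1e1 (1.78), Hes1 (1.5), Angptl4 (1.44), an inhibitor of lipoprotein lipase, Pik3r1 (0.74) and Glul (0.71). Whether every listed member, Hes1 among them, is induced by glucocorticoids in hepatocytes was not tested. The call for Glul was lost with median ratio scaling. Sult1e1, a sulfotransferase, was not called without NIC replicate 2 (1.53) or TA replicate 2 (1.44) without dexamethasone, Gpt2 not without NIC replicate 1 (-0.30), and Agxt not without any one of 11 animals. Pdk4 ranged from 16.3 TPM in NIC replicate 3 to 335 TPM without dexamethasone, against 10.5 to 59.3 TPM with it (median 20.9).

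The gene of smallest p was in none of these lists. Arl4d, a small GTPase related to the ARF proteins, was at 3.14, 8.26 and 20.8 TPM in the NIC animals and 7.27, 5.3 and 4.95 TPM in the TA animals without dexamethasone. With dexamethasone it was at 90.2 to 245 TPM (median 134). It was 17.3-fold lower without dexamethasone on the log2(TPM + 1) scale (log2 difference -4.11, standard error 0.28, adjusted p = 1.32e-07), and the exact permutation of animals within father groups gave 0.000319, the smallest p that its 3136 splits allow. The 12 genes of smallest p in this direction also included Slc25a25, a mitochondrial carrier of ATP and magnesium. It was at 59.9 to 98.7 TPM without dexamethasone (median 74.1), against 135 to 303 TPM with it (median 222), without overlap (log2 difference -1.54, standard error 0.16, adjusted p = 4.36e-06). Rasd1, a Ras-like protein first described as induced by dexamethasone, was listed at 0 in the 3 NIC animals and at 0.69, 0.57 and 0.53 TPM in the TA animals without dexamethasone, against 1.49 to 5.79 TPM with it (median 2.81) (log2 difference -1.61). Serpina3c, a serine protease inhibitor (-2.51), Lgr4, a receptor for R-spondins (-1.03), Ei24 (-0.93) and Cep85l (-1.35) did not overlap between the groups. Sec63, part of the protein channel of the endoplasmic reticulum (-1.25), and Fam214a (-1.90) overlapped.

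Promoter windows were searched for the glucocorticoid response element, because the receptor is known to bind it. The window, taken from RefSeq on GRCm38.p6, runs from 250 bases before to 50 after the start of transcription. The motifs were the element, GNACA and TGTNC with any 3 bases between them, which reads the same on both strands, and the hexamer TGTTCT that forms one of its arms, searched on both strands. The element can overlap a hexamer. Of 32851 windows of all genes, 156 (0.475%) held the element and 6233 (19%) a hexamer. Among 10346 windows of the genes tested the shares were 0.338% and 12.9%, and among 917 windows of the genes called lower 0.872% and 15.6%. Of the 25 members of the glucocorticoid lists that were lower, 21 had at least 1 window, 27 in all, of which 2 (7.41%) held the element and 6 (22.2%) a hexamer. Both windows with the element belong to Fam107a and lie 2 bases apart, so that they are nearly the same sequence. Of the 12 higher members, 8 had windows, 10 in all, and none held either motif. A match describes these letters only. The windows of the 4 called members of smallest p with a match, whose values are given above, are shown with the matched letters in capitals: Fam107a at chr14:8309728-8310027, Lpin1 at chr12:16610917-16611216, Tsc22d3 at chrX:140600473-140600772 and Nr1i2 at chr16:38294775-38295074, all on the minus strand and read 5′ to 3′ toward the gene.
Fam107a: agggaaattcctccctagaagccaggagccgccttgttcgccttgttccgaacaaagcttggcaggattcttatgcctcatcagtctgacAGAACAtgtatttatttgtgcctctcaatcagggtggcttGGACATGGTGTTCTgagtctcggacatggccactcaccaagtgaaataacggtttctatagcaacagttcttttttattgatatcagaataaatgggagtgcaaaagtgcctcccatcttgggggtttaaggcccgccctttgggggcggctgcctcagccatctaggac
Lpin1: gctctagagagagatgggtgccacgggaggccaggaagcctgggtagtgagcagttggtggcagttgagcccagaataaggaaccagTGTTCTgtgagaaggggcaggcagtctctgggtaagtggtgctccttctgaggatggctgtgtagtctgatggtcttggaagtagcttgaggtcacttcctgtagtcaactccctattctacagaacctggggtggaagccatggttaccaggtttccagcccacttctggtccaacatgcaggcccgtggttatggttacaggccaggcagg
Tsc22d3: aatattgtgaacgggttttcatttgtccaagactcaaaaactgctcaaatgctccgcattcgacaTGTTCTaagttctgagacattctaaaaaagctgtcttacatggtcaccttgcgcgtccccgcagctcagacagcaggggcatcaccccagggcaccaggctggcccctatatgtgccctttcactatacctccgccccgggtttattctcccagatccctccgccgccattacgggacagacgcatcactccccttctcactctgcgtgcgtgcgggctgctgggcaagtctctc
Nr1i2: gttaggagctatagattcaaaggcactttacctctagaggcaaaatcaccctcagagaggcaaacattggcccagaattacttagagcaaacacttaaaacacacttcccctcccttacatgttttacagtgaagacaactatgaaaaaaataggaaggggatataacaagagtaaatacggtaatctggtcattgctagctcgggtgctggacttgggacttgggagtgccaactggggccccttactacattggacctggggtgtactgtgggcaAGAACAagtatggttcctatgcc
In Fam107a the element begins 120 bases before the start and runs into a hexamer, and a second hexamer on the other strand begins 160 bases before the start. In Lpin1 and Tsc22d3 the hexamer begins 163 and 185 bases before the start, and in Nr1i2 it begins at base 28 after it.

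Cytokine and chemokine genes were much higher without dexamethasone. Of 34 tested genes for cytokines, chemokines and NF-kB targets, 30 were higher (88.2%, against 32.3% of all genes) and none lower, with a median log2 difference of 1.96. Of these, 27 were higher under every scaling. In 17 of them every animal without dexamethasone lay above every animal with it (the same held for 2.54% of all genes). The 4 members not called, named after their values were seen, were Cxcl1 (-0.48), Socs3 (-0.50), Nfkbia (-0.05) and Irf1 (0.05), of which the last 3 are fast targets of cytokine signalling. Most markers of macrophages, a source of cytokines in the liver, were also called higher (their sums are given below with the other cell markers). In NIC replicate 3 without dexamethasone the macrophage sum lay within the dexamethasone range. Il1b, a cytokine of activated macrophages, was at 330.2, 141 and 67.8 TPM in the NIC animals and 178, 117 and 104 TPM in the TA animals without dexamethasone. With dexamethasone it was at 0.98 to 11.7 TPM (median 3.86), so that the lowest animal without dexamethasone was well above the highest with it (log2 difference 4.90, standard error 0.40, adjusted p = 3.81e-07). Il1a, its relative, was at 263, 139 and 43.2 TPM in the NIC animals and 114, 78.9 and 90.98 TPM in the TA animals without dexamethasone, against 3.52 to 11.9 TPM with it (median 7.43) (log2 difference 3.73, standard error 0.30, adjusted p = 3.81e-07). Il1rn, the antagonist that blocks the receptor of both, was higher as well, at 78.05 to 610.2 TPM without dexamethasone (median 339.9), against 8.13 to 51.1 TPM with it (median 27.8) (log2 difference 3.53, standard error 0.38, adjusted p = 6.06e-06).

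Ccl2, the chemokine that draws monocytes, was at 899, 542 and 75.9 TPM in the NIC animals and 162, 538 and 409.6 TPM in the TA animals without dexamethasone, against 1.46 to 14.2 TPM with it (median 6.79). The groups did not overlap (log2 difference 5.59, standard error 0.48, adjusted p = 5.45e-07). Irg1, whose product makes itaconate in activated macrophages, was at 96.4, 51.8 and 23.6 TPM in the NIC animals and 59.9, 30.1 and 45.9 TPM in the TA animals without dexamethasone, against 0.72 to 3.95 TPM with it (median 2.26) (log2 difference 3.99, standard error 0.30, adjusted p = 2.11e-07). Ier3, an NF-kB-responsive early gene, was at 39.6 to 129.6 TPM without dexamethasone (median 98.8) and 6.78 to 26.6 TPM with it (median 12.2), again without overlap (log2 difference 2.64, standard error 0.25, adjusted p = 1.85e-06). In each of Il1b, Il1a, Il1rn, Ccl2 and Ier3, NIC replicate 3 was the lowest of the 6 animals without dexamethasone and still above all 10 with it. Irg1 and Ier3 were not members of the cytokine list counted above.

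Interferon-stimulated genes formed the list with the highest share of calls among those of 9 or more tested genes. Of 32 tested, 30 were higher (93.8%) and none lower, with a median log2 difference of 1.82, and 28 were higher under every scaling. In 10 of them the groups did not overlap, and the 2 not called, named after their values were seen, were Psmb9 (0.49) and Bst2 (0.23). Ifit1, which binds viral RNA, had the second smallest p of all genes, at 378, 252 and 197 TPM in the NIC animals and 814, 285 and 573 TPM in the TA animals without dexamethasone. With dexamethasone it was at 14.1 to 85.6 TPM (median 23.7), with TA replicate 4 highest (log2 difference 3.77, standard error 0.28, adjusted p = 2.11e-07). Its neighbours in the family, Ifit3 and Ifit2, were at 118 to 560.2 TPM without dexamethasone (median 241) and at 35.9 to 119 TPM without dexamethasone (median 52.2). With dexamethasone they were at 11.2 to 57.2 TPM and 5.08 to 12.6 TPM (log2 differences 3.64 and 2.75). Mx1, a GTPase that blocks influenza viruses, was at 24.1, 11.03 and 10.1 TPM in the NIC animals and 36.01, 16.3 and 25.6 TPM in the TA animals without dexamethasone, against 0 to 1.81 TPM with it (median 0.86) (log2 difference 3.40, standard error 0.27, adjusted p = 3.06e-07). Cmpk2, a mitochondrial nucleotide kinase induced with the antiviral genes, was at 23.3 to 216 TPM without dexamethasone (median 97.3), against 0.77 to 14.9 TPM with it (median 4.31) (log2 difference 4.30, standard error 0.34, adjusted p = 3.65e-07). Among the 12 genes of smallest p in the higher direction was also Phf11b (2.91), which was not in the interferon-stimulated list. The Ifit genes are related in sequence and how the authors' counting shared reads among them is not given.

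Mmp13 and Igf2bp2, among the 12 genes of smallest p in the higher direction, belonged to no list, and the same held for Irg1 and Phf11b above. Spp1 stood in the list of biliary markers. Mmp13, a collagenase, was at 119, 37.3 and 8.53 TPM in the NIC animals and 67.99, 28.1 and 35.8 TPM in the TA animals without dexamethasone, and at 0 to 1.08 TPM with dexamethasone (log2 difference 5.00, standard error 0.38, adjusted p = 2.11e-07). Spp1, osteopontin, a secreted protein of biliary cells and macrophages, was at 1378, 2681 and 223 TPM in the NIC animals and 1804, 1555 and 1492 TPM in the TA animals without dexamethasone, against 8.71 to 104 TPM with it (median 18.5) (log2 difference 5.57, standard error 0.55, adjusted p = 2.81e-06). Neither overlapped between the groups. Igf2bp2, an mRNA-binding protein of growing tissue, was at 3.08 to 17.2 TPM without dexamethasone (median 13.1), against 0.44 to 0.91 TPM with it (median 0.58) (2.88).

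**Figure D3:**
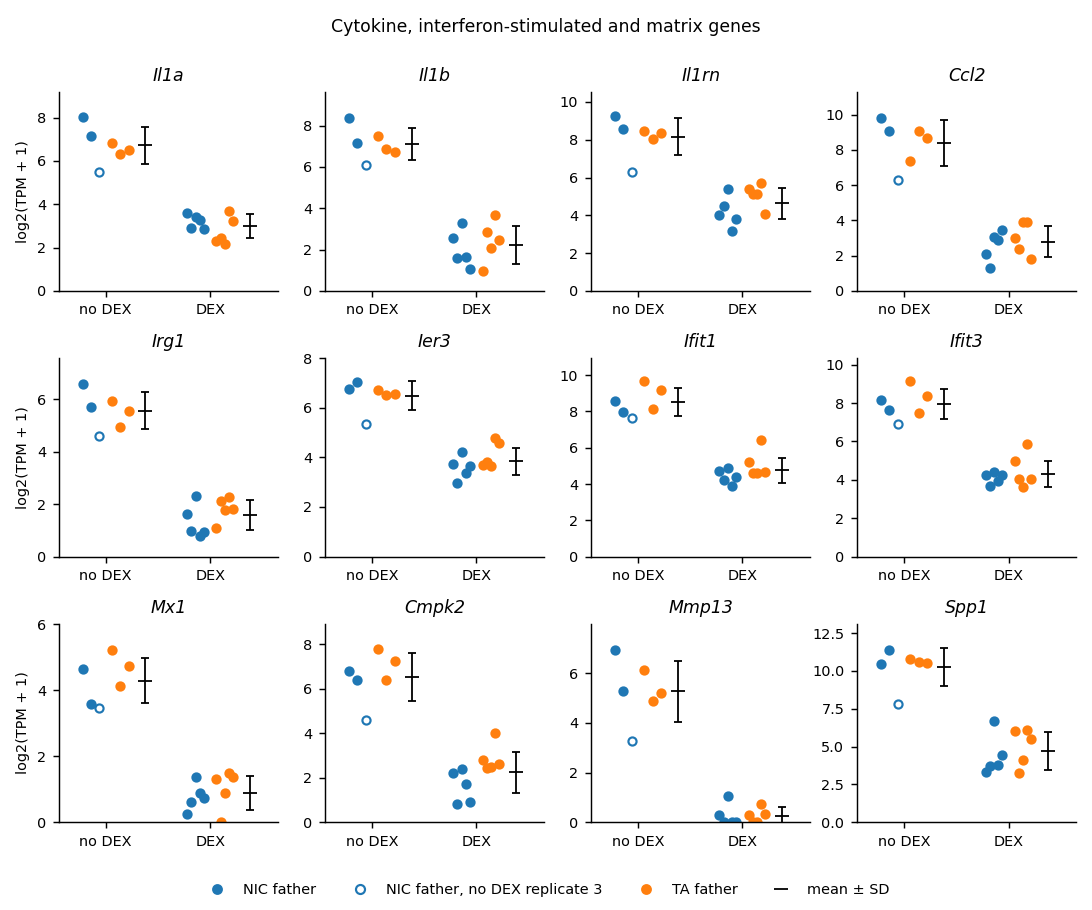
log2(TPM + 1) of 12 cytokine, interferon-stimulated and other genes in each animal, without dexamethasone at the left and with dexamethasone at the right, with the mean and SD of each group. In all 12 genes every animal without dexamethasone lies above every animal with it, including NIC replicate 3 (open circles).

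Most markers of macrophages, endothelium and stellate cells were higher as well. The hepatocyte markers were abundant in every animal, with a summed level of 137800 to 160400 TPM in 5 animals without dexamethasone and 200300 TPM in NIC replicate 3, against 163000 to 209200 TPM with it. The 5 animals thus all lay below the lowest with dexamethasone, and 8 of 19 tested markers were called lower (13 without NIC replicate 3). Of 19 tested Kupffer cell and macrophage markers, 17 were higher and none lower (median log2 difference 1.53); Aif1 (0.80) and Cd163 (0.35) were not called. Their summed level was 250.7 to 1300 TPM without dexamethasone (median 582.8), against 90.4 to 320.6 TPM with it (median 190.7), and all 19 were above 0 in some animal. Cd68, a lysosomal protein of macrophages, was at 71.3, 45.8 and 23.1 TPM in the NIC animals and 55.5, 33.1 and 48.01 TPM in the TA animals without dexamethasone, against 4.43 to 18.1 TPM with it (median 7.6) (log2 difference 2.21, standard error 0.29, adjusted p = 3.41e-05). Ptprc, the common leukocyte antigen CD45, was at 6.19 to 24.9 TPM without dexamethasone (median 10.4), against 1.45 to 3.06 TPM with it (median 2.6) (1.83). Fcer1g, an adaptor of Fc receptors (2.12), and the resident macrophage marker Timd4 (1.32) were higher as well. In bulk RNA, a change in the number of cells of a type and a change in RNA per cell cannot be told apart.

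Of 17 sinusoidal endothelial markers, 10 were higher (58.8%, against 32.3% of all genes) and none lower (median 0.92). Of 9 stellate cell and fibroblast markers, 8 were higher (88.9%), with a median of 1.01. The endothelial sum was 144.1 to 750.4 TPM without and 122.1 to 253.1 TPM with dexamethasone, and the stellate sum 64.8 to 429.2 TPM without and 39.5 to 77.9 TPM with it. Under every scaling, 6 endothelial and 6 stellate markers were higher. Pecam1, a junction protein of endothelium, was at 98.9, 107 and 19.8 TPM in the NIC animals and 64.3, 28.9 and 36.7 TPM in the TA animals without dexamethasone, against 7.03 to 13.8 TPM with it (median 8.38) (log2 difference 2.31, standard error 0.30, adjusted p = 4.06e-05). Egfl7 (2.42) and Cdh5 (1.53) of endothelium and Dcn (1.60) and Vim (2.10) of fibroblasts were higher too. Of 4 tested lymphocyte and neutrophil markers, 3 were higher, with a sum of 20.9 to 134.6 TPM without and 0.41 to 26.7 TPM with dexamethasone. The biliary sum, 268.8 to 2905 TPM without and 52.03 to 233.4 TPM with dexamethasone, consists largely of Spp1. Of 6 tested biliary markers 3 were higher, namely Spp1, Cdh1 (1.51) and Epcam (1.21), and 2 lower, among them Onecut1 (-1.53), all but Spp1 named after their values were seen.

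NIC replicate 3 without dexamethasone was the lowest of the 6 animals in the macrophage, endothelial, stellate, cytokine and interferon-stimulated sums. Its macrophage, endothelial and stellate sums (250.7, 144.1 and 64.8 TPM) lay within the range with dexamethasone. In this animal 17 of the 30 higher cytokine and NF-kB genes, 10 of the 30 higher interferon-stimulated genes and 4 of the 17 higher macrophage markers were above every animal with dexamethasone. Over all genes called higher, this held for 405 of 3422 (11.8%). The summed cytokine level of this animal, 2497 TPM, and its interferon-stimulated level, 1275 TPM, were just above the highest with dexamethasone (2493 and 1189 TPM). In the other 5 animals these sums began at 3351 and 3037 TPM. Without this animal 4502 genes were called higher and 1117 lower, and 30 cytokine genes, 30 interferon-stimulated genes and 18 macrophage markers were higher. The part of macrophages in the cytokine and interferon-stimulated differences was not tested.

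**Figure D4:**
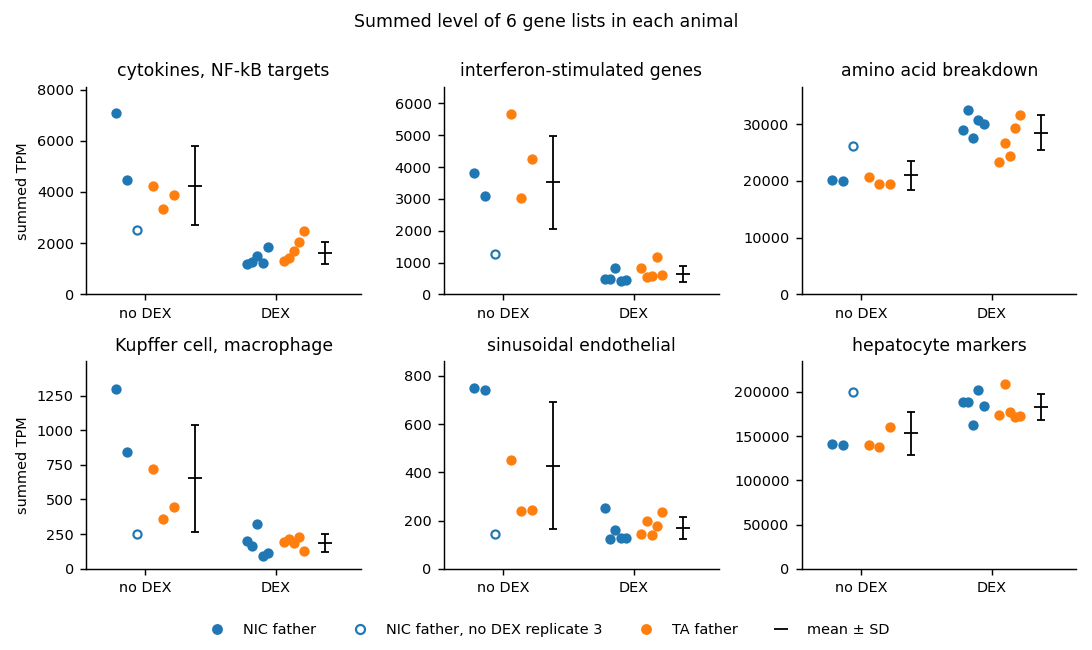
Summed TPM of 6 gene lists in each animal, without dexamethasone at the left and with it at the right, with the mean and SD of each group. NIC replicate 3 (open circles) lies within the dexamethasone range for the cell markers and just above it for the cytokine (2497 against at most 2493 TPM) and interferon-stimulated (1275 against at most 1189 TPM) sums.

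Acute phase proteins, which the liver secretes in inflammation with help from glucocorticoids, did not share the direction of the cytokines. Of 31 tested, 5 were higher and 5 lower (16.1% each), against 32.3% higher and 8.9% lower over all genes. The median log2 difference was 0.11. Serpina3m was at 312, 306 and 439.8 TPM in the NIC animals and 432, 352 and 468 TPM in the TA animals without dexamethasone, against 539.6 to 1826 TPM with it (median 747), without overlap (log2 difference -1.23, standard error 0.24, adjusted p = 0.000791). Orm3, an orosomucoid (-2.44), and Il6ra, the receptor subunit for IL-6 (-1.03), were lower, while Stat3, the transcription factor downstream of that receptor, was higher (0.72). The orosomucoid and Serpina3 genes are families of near copies, so that the reads of single members are uncertain.

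Metabolic genes of the hepatocyte were lower in several lists, and the summed hepatocyte markers (given above) were lower in the same 5 animals. The part of hepatocyte content in these differences was not tested. Of 55 tested genes of amino acid breakdown and the urea cycle, 30 were lower (54.5%, against 8.9% of all genes) and none higher, with a median log2 difference of -0.38, and all 30 were lower under every scaling. Their summed level was 19400 to 26110 TPM without dexamethasone (median 20070), against 23400 to 32530 TPM with it (median 29220), and only NIC replicate 3 lay in the range with dexamethasone. After Tat, the smallest p were those of Qdpr, which regenerates the cofactor of phenylalanine hydroxylase, at 57.6 to 133 TPM without dexamethasone (median 75.6) and 103 to 336 TPM with it (median 211) (log2 difference -1.28, standard error 0.20, adjusted p = 0.000157). Aldh6a1 of valine breakdown (-0.55, without overlap) and Mccc1 of leucine breakdown (-1.14) followed. Against the 1 h libraries alone 34 of the 55 were lower, against the 3 h libraries alone 18, against date A alone 18 and against date B alone 20. Over all genes, the lower calls in these settings were, in the same order, 986 of 10597, 566 of 10560, 606 of 10720 and 383 of 10733.

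Of 28 hepatocyte transcription factors and receptors, 12 were lower and 1, Nr3c1, higher (median -0.40). Hnf4a, the factor that maintains hepatocyte identity, was at 139, 91.02 and 289 TPM in the NIC animals and 142, 104 and 106 TPM in the TA animals without dexamethasone, against 226 to 327 TPM with it (median 281). NIC replicate 3 lay within the dexamethasone range and the other 5 below it (log2 difference -1.04, standard error 0.18, adjusted p = 0.000369; -1.26 without that animal). Rxra, the shared partner of nuclear receptors (-1.09), Ppara, the fatty acid receptor of fasting (-1.19), and Nr1h4, the bile acid receptor FXR (-0.86), were lower. Of 21 tested FXR targets and genes that make bile acids, 9 were lower (42.9%, against 8.9% of all genes) and none higher (median -0.40). Cyp8b1, which sets the share of cholic acid, was at 19.8 to 81.2 TPM without dexamethasone (median 38.05), against 66.9 to 240.0 TPM with it (median 109.6) (log2 difference -1.52, standard error 0.29, adjusted p = 0.000771). Baat, which couples bile acids to taurine, did not overlap between the groups, at 178 to 276 TPM without dexamethasone (median 229) and 280.1 to 344 TPM with it (median 309) (-0.48). Klb, the coreceptor of FGF15, was also lower, with overlap (log2 difference -1.07, standard error 0.23, adjusted p = 0.00196).

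Of 38 PPARα targets (median -0.23), 14 were lower (36.8%) and 6 higher (15.8%), against 8.9% and 32.3% of all genes. Plin2, which coats lipid droplets, went the other way, at 1575, 3001 and 279.8 TPM in the NIC animals and 2269, 1534 and 1312 TPM in the TA animals without dexamethasone, against 87.2 to 404 TPM with it (median 256) (log2 difference 2.58, standard error 0.38, adjusted p = 9.56e-05). Of 25 genes of gluconeogenesis and glycogen, 7 were lower (28%) and 3 higher (12%), against the same shares of all genes. Ppp1r3b, which directs glycogen synthesis in the liver, was at 11.5 to 58.6 TPM without dexamethasone (median 13.5), against 39.1 to 131 TPM with it (median 76.1) (log2 difference -1.85, standard error 0.32, adjusted p = 0.000323). Of 38 nuclear genes of oxidative phosphorylation, 11 were lower and none higher (median -0.16), with Atp5h (-0.45, without overlap) and Cox6c (-0.44) of smallest p. Insulin and SREBP1 targets (5 of 28 lower, 2 higher), cholesterol synthesis genes (2 of 25 lower, 2 higher) and PXR and CAR targets (6 of 34 lower, 4 higher) are given with TPM as deposited. Other scalings gave more lower calls in these lists, as over all genes (2144 to 2536 lower, against 942). With median ratio scaling, 12 insulin and SREBP1 targets, 8 cholesterol synthesis genes, 11 PXR and CAR targets, 28 oxidative phosphorylation genes, 24 PPARα targets (of 37 then tested) and 13 genes of gluconeogenesis and glycogen were lower. Of 19 hepatocyte markers, 8 were lower and 2 higher (median -0.31), with Apoa1, the main protein of HDL, at 5945 to 8847 TPM without dexamethasone (median 7021) and 7715 to 13590 TPM with it (median 11470) (-0.58).

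Genes of the cytoskeleton, of YAP and of the serum response, which rise as hepatocytes spread on a culture surface, were higher in 23 of 27 cases and lower in none (median 1.52). Of the 27, 19 were higher under every scaling. Anxa2, a membrane-binding protein, was at 159.5, 165 and 26.2 TPM in the NIC animals and 192, 254 and 230.3 TPM in the TA animals without dexamethasone, against 2.16 to 58.5 TPM with it (median 5.03) (log2 difference 3.98, standard error 0.59, adjusted p = 0.000109). Tagln2 (2.00), Tpm1 (2.05) and Tuba1b (1.70), which encode a transgelin, a tropomyosin and a tubulin, were higher too. The highest sum of this list with dexamethasone, 10560 TPM, reached the lower values without it, which ran from 4690 TPM in NIC replicate 3 to 17260 TPM.

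Targets of ATF4, the factor of the amino acid response, were higher in 18 of 24 cases and lower in 2 (median 1.18). Slc7a11, the cystine importer, was at 20.4, 18.2 and 0.39 TPM in the NIC animals and 20.6, 18.2 and 14 TPM in the TA animals without dexamethasone, against 0.074 to 1.32 TPM with it (median 0.48) (log2 difference 3.04, standard error 0.43, adjusted p = 7.66e-05). It was at the dexamethasone level in NIC replicate 3, and so were Psph (1.67) and Phgdh (2.09) of serine synthesis and Sars (1.22), the seryl-tRNA synthetase. None of the 18 was above every animal with dexamethasone in that animal, against 11.8% of all genes called higher. Of 26 AhR and Nrf2 targets, 15 were higher and 1 lower (median 0.52), among them Hmox1, heme oxygenase, at 397 to 2857 TPM without dexamethasone (median 1872), against 95.04 to 709 TPM with it (median 217) (log2 difference 2.65, standard error 0.38, adjusted p = 7.49e-05), Txnrd1 (2.09) and Gsta1 (3.00). Of 25 immediate early genes (median 0.52), 11 were higher (44%) and 3 lower (12%), against 32.3% and 8.9% of all genes. Fosl1, an AP-1 subunit, was at 8.45 to 92.3 TPM without dexamethasone (median 76.4), against 1.02 to 11.9 TPM with it (median 2.8) (3.54). Ier5 was higher too (2.22). Of 19 genes of apoptosis and p53 targets, 7 were higher (36.8%) and 1 lower (5.26%), near the shares of all genes (32.3% and 8.9%), the inhibitor of p53 Mdm2 (1.87) and the apoptosis effector Bax (1.30) being higher.

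Lower calls over all genes were 942 of 10585 with TPM as deposited, 2144 of 10451 with median ratio and 2338 of 10472 with TMM scaling. Of 20 stress genes of the endoplasmic reticulum, 4 were lower and 3 higher with TPM as deposited, and 11 were lower and 2 higher with median ratio and TMM scaling. Of 20 cytosolic heat shock genes, 2 were lower and 4 higher with TPM as deposited, and 8 lower and 2 higher with median ratio scaling. Xbp1 (0.90) and Ddit3 (1.53) were higher and the foldase Pdia3 (-1.39) lower. Hsph1, the heat shock gene that also differed between dates B and A (by -1.54), had a log2 difference of -1.66 here. Of 19 clock genes, 4 were lower, including Per1 and Nfil3 (-0.57, not called without TA replicate 3 without dexamethasone, at -0.50), and 2 higher, including Bhlhe40 (1.21). Of 37 cytosolic ribosomal protein genes 10 were higher with TPM as deposited, but 1 under every scaling.

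**Figure D5:**
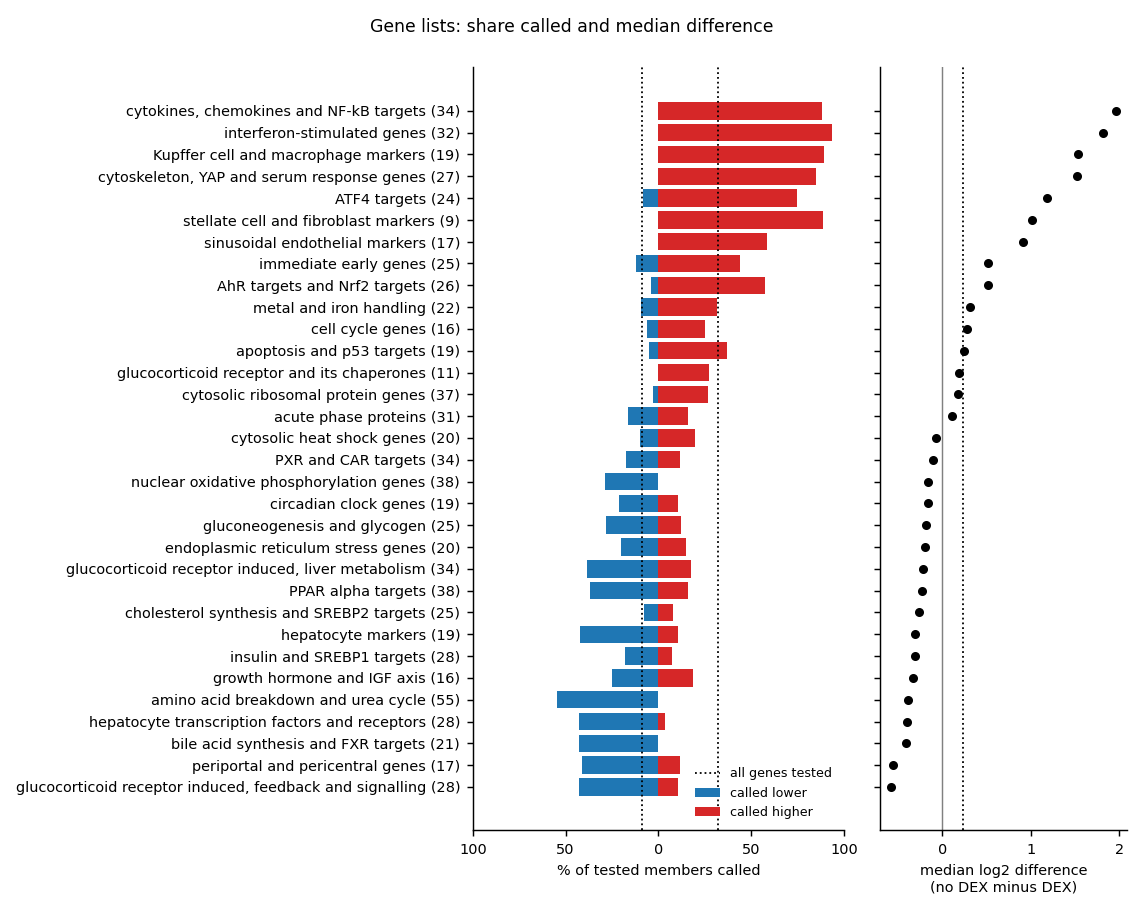
Left, the share of tested members of each gene list that was called higher (red) or lower (blue) without dexamethasone, with the number tested in brackets and dotted lines at the shares of all genes (32.3% and 8.9%). Right, the median log2 difference of each list, with a dotted line at the median of all genes (0.23); cytokine and interferon-stimulated genes stand at the upper end and glucocorticoid-induced feedback genes at the lower.

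Offspring of NIC and TA fathers were not found to differ in these responses. No gene of 10585 (0%) had a called interaction of father and dexamethasone by limma, while 555 had an unadjusted p under 0.05, and the smallest adjusted p was 0.478. Among the 111 genes described here the smallest was 0.823, and 110 of them had differences of the same sign in NIC and in TA offspring. Most of these genes were chosen for a difference in all animals together, so that a shared sign was favoured in advance. The log2 difference of Il1b, for example, was 5.18 in NIC and 4.62 in TA offspring, and that of Tat was -1.22 in NIC and -0.99 in TA offspring. With 3 animals per father group without dexamethasone, and with replicate 3 apart in the NIC group, 405 genes were called in NIC offspring alone and 3228 in TA offspring alone. Leaving out NIC replicate 2 without dexamethasone gave 5 genes with a called interaction (Rbks, Hmga2-ps1, Safb, Tnfsf12 and BC061237), and leaving out NIC replicate 3 gave 3 others (Susd4, Ppap2a and Clec4d). These 8 were named after their values were seen.

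The lists were also counted against each title date and each time with dexamethasone. Against date A animals alone 2615 of 10720 genes were called (2009 higher, 606 lower), and against date B animals alone 2586 of 10733 (2203 higher, 383 lower). Against the 1 h libraries alone, 3266 of 10597 genes were higher and 986 lower, and against the 3 h libraries alone 2904 of 10560 were higher and 566 lower. These counts over all genes are the background for the list counts by date and time. Of the 34 cytokine genes, 28 were higher with either date and 30 with either time, while 1 was lower with date B and with 1 h alone. Of the 32 interferon-stimulated genes, 29 were higher with date A, 28 with date B and 30 with either time. Of the 28 feedback genes, 12 were lower with date A and 9 with date B, and 12 with either the 1 h or the 3 h libraries alone. The 1 h libraries ranged from 1.11 to 14.6 TPM for Il1b and the 3 h libraries from 0.5 to 8.83 TPM, both below the lowest 2 h value without dexamethasone. Of the 111 genes described, 12 lost the call with date A alone and 14 with date B alone. Nr3c1, Dusp1, Mt2, Nr1i2, Gpt2 and Sult1e1 lost it with either, Nrip1, Sds, Agxt, Arg1, Glul and Pdk4 with date A, and Tsc22d3, Foxo3, Mfsd2a, Cps1, Angptl4, Il6ra, Nfil3 and Pdia3 with date B. Tat was at 1647 to 3366 TPM at 1 h and 1253 to 3163 TPM at 3 h.

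A further 4 libraries (2 NIC, 2 TA) match the culture time of 2 h and had dexamethasone, but carry yet another date and are in CPM (reads scaled to a common library total), which are not scaled by transcript length. Their totals were 1530794 to 2793007 reads, recovered from the CPM steps, and 100% of values came out whole within a tolerance of 0.05 reads. They are shown for orientation, give no fold against TPM and were not tested. Among the higher genes, Mmp13 was at 0 to 1.05 CPM, Il1b at 1.96 to 10.5 CPM, Ccl2 at 7.52 to 49.3 CPM and Ifit1 at 32.9 to 74.5 CPM in these libraries, while Spp1 was at 146 to 199 CPM, Slc7a11 at 18.3 to 48.5 CPM and Fosl1 at 54.1 to 81.8 CPM. Among the lower genes, Arl4d was at 55.98 to 107 CPM, Zbtb16 at 61.2 to 85.9 CPM, Fkbp5 at 76.5 to 142 CPM, Tat at 898 to 1744 CPM and G6pc at 94.8 to 347 CPM.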

How the data were processed

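Livers were perfused and dissociated whole, so that cells other than hepatocytes could remain, and cells that had not adhered after 3 h were removed. RNA was depleted of ribosomal RNA and sequenced as strand-specific libraries on a NextSeq 500. Per the submitters' processing notes, Bowtie2, DESeq2 and the mm10 build were used; how reads of near-identical genes were shared is not given. The authors deposited TPM for the 26 libraries compared here, and CPM for the 4 libraries of title date C, which were not tested. The table holds 23126 genes, of which 27 symbols had been turned into dates and 2 were repeated.

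TPM of the 1 h and 3 h libraries were averaged per animal. log2(TPM + 1) of genes with a mean above 1 was tested with limma 3.58.1 (R 4.3.3, edgeR 4.0.16 for TMM factors) with an intensity trend and a father term, after the script was tested on simulated data. Differences are without minus with dexamethasone, folds are on this scale and understate changes of low genes, and an adjusted p under 0.05 (Benjamini-Hochberg) was a call. Single genes also had a 2-sided exact permutation over 3136 splits within father groups. Genes were named by a rule: the 12 of smallest p in each direction, called members of the glucocorticoid lists, and up to 4 members of smallest p in other lists. The members and lists were chosen with earlier results of these data known, so their counts are descriptions. Alternatives changed the pseudocount, filter, scaling, time, title date, father group, spread, adjustment and animals. Counts over several scalings and lists without single animals were added after seeing the data. Animals were the replicates, and the depth behind TPM is unknown. Python 3.11.15, pandas 2.3.3 and matplotlib 3.10.9 were used for tables and figures.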

Additional observations from a re-analysis of the deposited data

Results flagged for a closer look

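In each group of animals the highest or lowest value was compared with its nearest neighbour by Dixon's criterion, for 111 genes, 9 list sums and the first principal component. Of 242 groups checked, 36 held an animal apart, and 18 of the 36 were NIC replicate 3 without dexamethasone. Chance gives about 5% for independent, normally spread values, which TPM of related genes need not be. That animal had a PC1 score of -27.23. It was the highest of its group for Fkbp5 (21.01 TPM), Gadd45g (267.8), Mfsd2a (28.47), G6pc (335.2), Lpin1 (101.5), Irs2 (22.44), Arl4d (20.84), Hnf4a (289.2), Nr1h4 (94.37) and Ppp1r3b (58.6), and for the summed amino acid breakdown genes (26110 TPM) and hepatocyte markers (200300 TPM). It was the lowest for Pik3r1 (21.84 TPM), Tpm1 (18.3), Slc7a11 (0.3902), Ier5 (19.45) and Mdm2 (44.92). Other TPM values without dexamethasone stood apart: Sec63 at 25.9 in TA replicate 1 and Fcer1g at 59.34 in NIC replicate 1.

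Among animals with dexamethasone, NIC replicate 3 was highest for Tgm2 (831.6 TPM), Serpina3c (26.36), Orm3 (144.1), Bax (26.98) and Xbp1 (292.4). NIC replicate 1 was highest for Foxo3 (17) and Dcn (35.02), NIC replicate 4 for Lgr4 (38.87), and NIC replicate 5 was lowest for Sec63 (23.64). TA replicate 4 was highest for the interferon-stimulated genes Ifit1 (85.61), Ifit3 (57.25) and Cmpk2 (14.88). TA replicate 1 was highest for Klf9 (106.2) and lowest for Egfl7 (0.9095), TA replicate 2 highest for G6pc (888.8) and TA replicate 5 for Arl4d (245.3).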

How the results depend on the processing

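Against 4364 called genes, the count was 2615 with date A animals alone as the dexamethasone group, 2586 with date B alone, 405 in NIC offspring alone and 311 with Holm adjustment. Leaving out 1 animal at a time gave 3285 to 5619 genes, the highest without NIC replicate 3 without dexamethasone. The interaction of father and dexamethasone had 0 to 5 genes with 1 animal left out. The 1 gene called between dates B and A became 0 with the 1 h libraries alone and 0 with the 3 h libraries alone. Of 3878 values of 111 genes under the alternatives, 3671 kept direction and call, 196 lost the call and 11 changed sign. All 11 were of Sgk1, which was not called: 0.0302 with a pseudocount of 5, 0.035 with 3 h alone, 0.17 with date B alone, 0.18 in NIC offspring, and -0.308 to 0.37 over the animals left out. In NIC offspring alone 69 of the 111 lost the call. The cause was not tested. Dates, animals and time cannot be told apart from dexamethasone, and the depth of the TPM libraries is unknown. No paired analysis was possible because the animals compared share no labelled pairing.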
